A study of Mus musculus with 9 samples.

Results

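Alternative activation is the state that macrophages, the tissue phagocytes, enter when interleukin-4 (IL-4) or interleukin-13 (IL-13) reaches them. Arginase 1 is its best known marker. The 10 genes described here are other markers and regulators of that state: Il4ra, Pparg, Klf4, Irf4, Mrc1, Clec10a, Mgl2, Cd163, Chil3 and Retnla. They were chosen by symbol, with no rule on their values, though with earlier results of these data known, and each was found by its Ensembl identifier, giving 10 of the 34866 genes listed in the deposited tables. RNA from cultured mouse primary macrophages was sequenced in 9 libraries, 3 per group. The standard group spent 7 days at standard oxygen. Acute hypoxia meant standard oxygen followed by 3 hours at 1% oxygen, and chronic hypoxia meant 7 days at 1% oxygen. All 3 groups shared one growth medium, alpha-MEM with fetal bovine serum, a supplement labelled PSQ and L929-conditioned medium. L929 is a fibroblast line that secretes the macrophage growth factor M-CSF. The labels name no added IL-4 or IL-13 and no genetic change, and the strain, sex and age of the mice, the tissue the cells came from and whether animals were pooled are not given in the sources used here.

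In background, IL-4 and IL-13 bind receptors that contain the IL-4 receptor alpha chain, encoded by Il4ra. The receptor acts through Janus kinases that phosphorylate the transcription factor STAT6. STAT6 then works with nuclear factors, among them PPAR gamma (Pparg), KLF4 (Klf4) and IRF4 (Irf4). It does so at genes for lectins on the cell surface (Mrc1, Clec10a, Mgl2) and for secreted proteins (Chil3, Retnla). Cd163 encodes a scavenger receptor and is counted here among the markers of the state. Several of these genes are also used in macrophages that have not met IL-4: Il4ra is made at rest, and Pparg is a constant feature of some tissue macrophages.

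The description labels carry a code shared by 1 library of each group, here called X, Y and Z. What the code stands for is not stated. Libraries of one code deviated together from their group means, so each comparison below is given with and without the code as a block, which compares libraries within a code. The code Z libraries (standard replicate 2, acute replicate 3 and chronic replicate 3) stood apart from the others. They scored 29.4 to 43.3 on the first principal component of all genes, which held 36.9% of the variance, against -25 to -11.3 for the X and Y libraries. The second component (25.4%) held the chronic libraries at 22.1 to 35.6 and the others at -20.9 to -9.65. Mertk, an uptake receptor of mature macrophages, was listed at 2.21 to 3.37 TPM (a unit that gives each gene's share of the library's transcripts, corrected for length) in code Z and at 21.8 to 33.3 TPM in the other libraries. Of 8 macrophage markers, 8 exceeded 1 TPM, with a summed level of 56607 to 74792 TPM over the 9 libraries, mostly Lyz2. Mertk is among these 8, and the others did not all follow it. Adgre1 and Cd68 were also lowest in code Z in each group. Csf1r and Itgam were highest in code Z in the standard and acute groups and lowest there in the chronic group. The place of code Z for Fcgr1, Cd14 and Lyz2 differed between groups. Of 6 dendritic cell markers, 0 reached 1 TPM in any library (summed level 0.394 to 0.596 in the standard group, 0.676 to 0.973 in the acute and 0.243 to 0.717 in the chronic group). The 4 monocyte markers summed to 49.5 to 304 TPM in the standard group, 55.6 to 246 in the acute and 74.0 to 1093 in the chronic group, and the highest library of each group was the code Z library. The 8 neutrophil markers summed to 898 to 1595 TPM in the standard, 941 to 1910 in the acute and 260 to 585 in the chronic group, nearly all of it S100a8. The rest of that list was low and did not move together. Camp averaged 0.832 TPM in the standard and 1.82 in the chronic group, Ngp 2.56 and 0.11, and S100a9 was at 0 in 8 libraries. The lists for eosinophils and mast cells, for fibroblasts and for lymphocytes each summed to at most 1.5 TPM in any library. In such bulk samples, fewer cells of a type and less RNA per cell cannot be told apart.

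Short stretches of the promoters are printed here for Il4ra and Klf4, a receptor and a factor measured after low oxygen, and for Chil3 and Retnla, secreted proteins that IL-4 is known to induce. Windows of 250 bases before each transcription start came from RefSeq (build GRCm38.p6) and were used for 8 of the 10 genes, 1 window each. They were searched on both strands for ACGTG and GCGTG, the core letters bound by hypoxia-inducible factors, for CACGTG, a palindrome that holds ACGTG on both strands, for TTCNNNNGAA, the spacing that STAT6 prefers, and for TTCNNNGAA, the spacing of other STAT proteins. Capitals mark the match, each stretch has 30 bases and reads 5′ to 3′ on the strand of the gene.
Il4ra, chr7:125552106-125552135, plus strand: acagctgcggacGCGTGgggtggggcatgc
Klf4, chr4:55532640-55532669, minus strand: cgcccccgccccCACGTGcgcggagtttgt
Chil3, chr3:106167717-106167746, minus strand: aaatacccacTTCTTAGAAacatagctatc
Retnla, chr16:48842454-48842483, plus strand: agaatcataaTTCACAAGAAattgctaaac
The match began 153 bases before the start in Il4ra, 182 in Klf4, 172 in Chil3 and 145 in Retnla. Distances are counted from the RefSeq start, which for some genes differs from the GENCODE position given below. The Il4ra window ends at 125552270 and the GENCODE start is 125552120, inside the printed stretch. For Retnla these are 48842608 and 48842551. The Irf4 window held CACGC, which is GCGTG read on the other strand, 80 bases before the start. The windows of Mrc1, Mgl2 and Cd163 held none of these letters. Such matches are common: of 32851 windows of the same length, 16.6% held ACGTG, 28.2% GCGTG, 6.02% CACGTG, 5.85% TTCNNNNGAA and 7.02% TTCNNNGAA. A match is a run of letters and does not show that a factor binds there.

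Among the 10 genes, Il4ra was listed at the highest level in each of the 9 libraries. Pparg was second in 3 of 3 standard libraries, ahead of Clec10a, and Clec10a was second in 3 of 3 acute libraries, ahead of Pparg. The order differed among the chronic libraries, where the second place went to Clec10a in code X and Z and to Mrc1 in code Y. Klf4, Mrc1, Chil3 and Cd163 stood lower, at under 4 TPM in each standard and acute library. Retnla, Mgl2 and Irf4 were at or near 0 throughout. Of the 10 genes, 5 had a mean of at least 1 TPM over the 6 libraries of the acute and standard groups and were tested there, and 6 were tested in each of the other comparisons. The tested genes are those with enough signal in at least 1 group, so they do not stand for all 10.

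**Figure D1:**
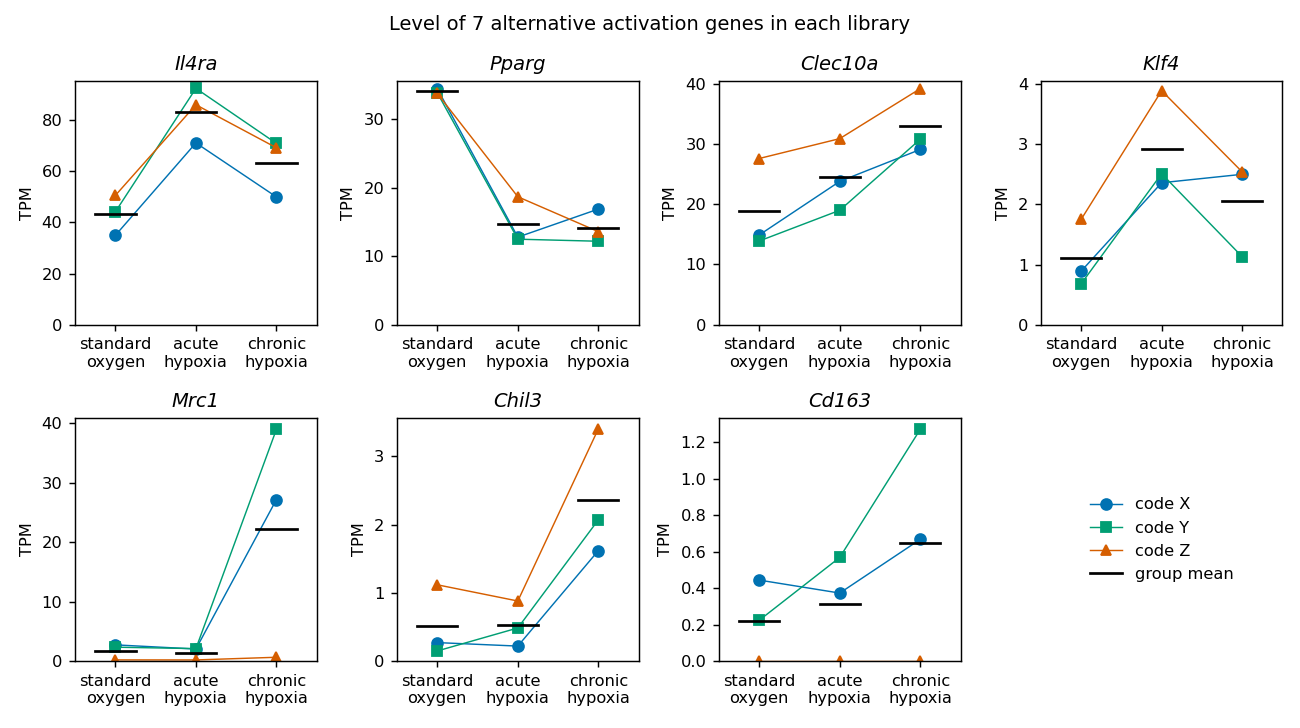
Level in TPM (vertical axis, starting at 0, a separate scale for each gene) of 7 of the 10 genes in the standard, acute hypoxia and chronic hypoxia groups; each point is 1 library, lines join the libraries of one code (X, Y or Z) and the black bar is the group mean of 3 libraries. Il4ra is highest in the acute libraries, Pparg is below 20 TPM in each hypoxic library and above 33 TPM in each standard library, and the code Z line of Mrc1 and Cd163 lies at or near 0.

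Il4ra (ENSMUSG00000030748; GRCm38, chr7:125552120-125579474, plus strand, protein coding) was higher under both forms of hypoxia, and higher in acute than in chronic hypoxia. It encodes the receptor chain through which IL-4 and IL-13 signal. Its level in the code X, Y and Z libraries was 34.9, 44.1 and 50.5 TPM in the standard group (43.2 ± 7.82, mean ± SD, n = 3), 71.0, 92.3 and 85.9 TPM in the acute group (83.0 ± 10.9) and 49.9, 70.8 and 69.1 TPM in the chronic group (63.3 ± 11.6). The acute libraries did not overlap the standard or the chronic ones, though the lowest acute library (71.0 TPM) lay barely above the highest chronic one (70.8 TPM). The lowest chronic library lay just below the highest standard one. Within a code the acute level was 2.03, 2.09 and 1.70 times the standard level. The chronic level was 1.43, 1.61 and 1.37 times the standard level in the same order.

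The Il4ra difference between acute and standard was 0.94 ± 0.085 (SE) on the log2(TPM + 1) scale with the code block, and it rose by that test (limma, Benjamini-Hochberg adjusted p = 0.0299). Without the block the difference had an SE of 0.166 and did not pass (limma adjusted p = 0.169). Without the code Z libraries it was 1.03 (limma adjusted p = 0.0559 without a block). Leaving out code Z, here and below, was an alternative chosen after seeing the data and left 2 libraries per group. Without a block it called 2.95% of all genes in acute against standard and 21.1% in chronic against standard. In chronic against acute it called 16.3%. A fit without code Z that has the block also takes all 3 groups at once, so that choice changes with it, and there the adjusted p was 0.00274 (limma). For chronic against standard it rose by 0.54 ± 0.077 with the block (limma adjusted p = 0.0188) and missed the threshold without it (0.163). In chronic against acute it fell by 0.40 ± 0.074 with the block (log2 difference -0.395, limma adjusted p = 0.0295; without the block 0.253). On this scale the change of a gene with a low level is understated. The p-values measure the spread between these libraries, which the series calls biological replicates.

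Pparg (ENSMUSG00000000440; chr6:115360951-115490399, plus strand, protein coding) was lower under both forms of hypoxia. PPAR gamma is a nuclear receptor for fatty acid derivatives that supports lipid uptake and oxidation in macrophages. Its level was 34.5, 33.9 and 33.8 TPM in the standard libraries of code X, Y and Z (34.1 ± 0.412), 12.8, 12.5 and 18.7 TPM in the acute ones (14.7 ± 3.49) and 16.9, 12.2 and 13.6 TPM in the chronic ones (14.2 ± 2.44). No hypoxic library overlapped a standard one, and the acute and chronic libraries overlapped each other. The 3 standard libraries lay within 1 TPM of each other.

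Pparg fell by 1.22 ± 0.136 (SE) on the log2 scale in chronic against standard (limma adjusted p = 0.0146 without a block, 0.00921 with the code block). It was the only one of the 6 tested genes to pass without a block. Leaving out standard X, standard Y or chronic Y ended that call (limma adjusted p = 0.103, 0.101 and 0.0798), while leaving out any other library kept it. The acute difference, -1.18 ± 0.161, was of nearly the same size and missed the threshold narrowly (limma adjusted p = 0.0874 without a block, 0.0514 with it). It passed after rescaling the libraries by the median of gene ratios without a block (limma adjusted p = 0.0435) but not with the block (0.0654), and it passed without the code Z libraries (-1.37, limma adjusted p = 0.00672, no block). The difference between chronic and acute was -0.03 ± 0.194 (limma adjusted p = 0.945), and it was 0.17 without the code Z libraries.

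Klf4 (ENSMUSG00000003032; chr4:55527143-55532466, minus strand, protein coding) encodes a zinc-finger factor that cooperates with STAT6. Its level was low, at 0.889, 0.679 and 1.75 TPM in the standard libraries of code X, Y and Z (1.11 ± 0.567), 2.36, 2.51 and 3.89 TPM in the acute ones (2.92 ± 0.844) and 2.5, 1.13 and 2.54 TPM in the chronic ones (2.05 ± 0.801). The acute libraries were above all 3 standard libraries, while the chronic libraries overlapped both other groups. Within a code the acute level was 2.66, 3.70 and 2.23 times the standard level. The difference was 0.91 ± 0.159 on the log2 scale with the code block and did not pass after adjustment (limma adjusted p = 0.111; without the block 0.487). The chronic differences, 0.53 against standard and -0.38 against acute, did not pass either (limma adjusted p with the block 0.136 and 0.26).

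Irf4 (ENSMUSG00000021356; chr13:30749226-30766976, plus strand, protein coding), a factor of the interferon-regulatory family that macrophages raise after IL-4, was listed at 0 in 3 libraries and at no more than 0.0309 TPM in the others. It was not tested.

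Mrc1 (ENSMUSG00000026712; chr2:14229392-14332057, plus strand, protein coding) encodes the mannose receptor CD206, a lectin for mannose-rich glycans. It was far higher in 2 of the 3 chronic libraries than in any other library. Its level was 2.78, 2.39 and 0.255 TPM in the standard libraries of code X, Y and Z (1.81 ± 1.36), 2.08, 2.15 and 0.247 TPM in the acute ones (1.49 ± 1.08) and 27.2, 39.0 and 0.697 TPM in the chronic ones (22.3 ± 19.6). The code Z library was the lowest of each group, and chronic Z lay below the X and Y libraries of all groups, so the groups overlapped. Within a code, the chronic level was 9.79, 16.3 and 2.74 times the standard level and 13.1, 18.1 and 2.82 times the acute level, higher in 3 of 3 codes. The acute level was 0.749, 0.899 and 0.97 times the standard level.

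The Mrc1 difference between chronic and standard was 2.30 ± 0.622 (SE) on the log2 scale with the code block and narrowly missed the threshold (limma adjusted p = 0.0637), and the SE was 1.2 without the block (limma adjusted p = 0.308). It passed in 1 fit of all 9 libraries with the block (limma adjusted p = 0.0327). Without the code Z libraries the difference was 3.23 and passed (limma adjusted p = 0.00206 without a block, 0.000572 with the block and all 3 groups in 1 fit), and without chronic Z alone it was 3.73 (0.0276 without a block). Leaving out code Z was chosen after seeing the data and drops the libraries in which Mrc1 was lowest. Those 2 fits without code Z called 21.1% and 32.9% of all genes. Against the acute group the difference was 2.44 ± 0.628 with the block (limma adjusted p = 0.0581) and 3.43 without the code Z libraries (0.00263 without a block). The acute difference from standard was -0.14 ± 0.172 with the block (limma adjusted p = 0.764), and its sign changed when single libraries were left out. The monocyte markers were highest in the same code Z libraries in which Mrc1 was lowest; their part in the result was not tested.

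Clec10a (ENSMUSG00000000318; chr11:70156197-70170834, plus strand, protein coding) encodes MGL1, a lectin for galactose-type sugars. Within each code it was lowest in the standard, intermediate in the acute and highest in the chronic library. The values were 14.9, 13.9 and 27.6 TPM in the standard libraries of code X, Y and Z (18.8 ± 7.67), 23.8, 19.0 and 30.9 TPM in the acute ones (24.6 ± 6.0) and 29.1, 30.8 and 39.2 TPM in the chronic ones (33.0 ± 5.42). Every chronic library was above every standard library, though chronic X exceeded standard Z by little, and the acute libraries overlapped both groups. Code Z was the highest library of each group, the reverse of its place for Mrc1. Clec10a rose by 0.83 ± 0.136 on the log2 scale in chronic against standard with the code block (limma adjusted p = 0.0236) and did not pass without it (0.139). Without the code Z libraries the difference was 1.01 (limma adjusted p = 0.00433 without a block). The acute difference from standard, 0.41 ± 0.116, and the chronic difference from acute, 0.43 ± 0.106, did not pass with the block (limma adjusted p = 0.244 and 0.0537).

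Mgl2 (ENSMUSG00000040950; chr11:70130329-70137550, plus strand, protein coding), the neighbouring paralog that encodes a second galactose lectin, was listed at 0 in 7 libraries and at 0.127 and 0.0544 TPM in chronic X and Y. Mgl2 and Clec10a share part of their sequence: 6.42% of the 75-base stretches of the longest Clec10a transcript also occur in Mgl2, and 9.29% of those of Mgl2 in Clec10a. Reads from these stretches cannot be assigned with certainty. Cd163 (ENSMUSG00000008845; chr6:124304656-124330527, plus strand, protein coding), the scavenger receptor for haemoglobin-haptoglobin, was below the level for testing. It was listed at 0.445, 0.225 and 0 TPM in the standard libraries of code X, Y and Z, 0.374, 0.569 and 0 TPM in the acute ones and 0.668, 1.27 and 0 TPM in the chronic ones. The 3 libraries at 0 are the 3 code Z libraries, and the highest 2 libraries are chronic X and Y. Cd163 and Mrc1 thus shared their lowest libraries.

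Chil3 (ENSMUSG00000040809; chr3:106147554-106167564, minus strand, protein coding) encodes Ym1, a secreted chitinase-like lectin. It was low in every group and highest after chronic hypoxia. Its level was 0.275, 0.153 and 1.12 TPM in the standard libraries of code X, Y and Z (0.516 ± 0.526), 0.224, 0.489 and 0.883 TPM in the acute ones (0.532 ± 0.332) and 1.62, 2.07 and 3.40 TPM in the chronic ones (2.36 ± 0.927). Every chronic library was above every standard and acute library, and code Z was the highest library of each group. Within a code the chronic level was 5.88, 13.5 and 3.04 times the standard level and 7.22, 4.23 and 3.85 times the acute level. Chil3 reached the filter of 1 TPM through the chronic group alone, so its presence among the tested genes depends on that difference, and its tests are given as a description. With the code block the difference was 1.17 ± 0.203 on the log2 scale against standard (limma adjusted p = 0.0259) and 1.12 ± 0.198 against acute (0.026). Without the block neither passed (limma adjusted p = 0.114 and 0.116), and without the code Z libraries both did (0.0245 and 0.0438, no block). In its longest transcript, 14.2% of the stretches of 75 bases occur in another gene, 8.53% in Chil4, which was itself listed at 0 in all 9 libraries.

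Retnla (ENSMUSG00000061100; chr16:48842551-48844461, plus strand, protein coding), which encodes the secreted protein FIZZ1 and is among the strongest IL-4 response genes of mouse macrophages, was listed at 0 in all 9 libraries. Its relative Retnlg was also at 0, and Retnlb was listed at 0.14 TPM in 1 library. An entry of 0 in a TPM table gives no upper limit, because the depth is not kept. A set of 16 genes used by every cell had no entry of 0, and its lowest value was 9.68 TPM.

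**Figure D2:**
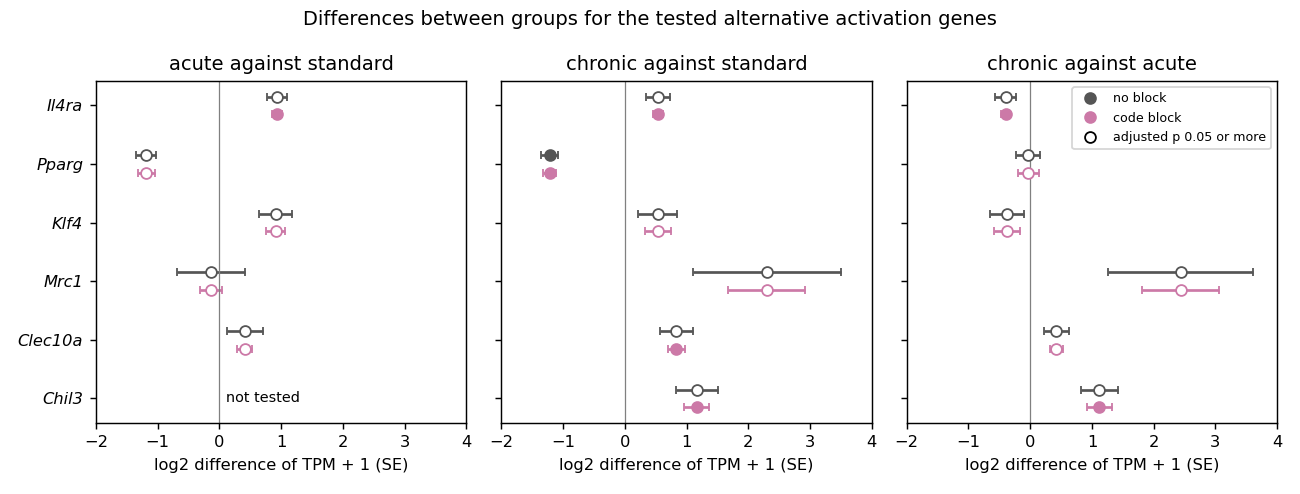
Difference between groups on the log2(TPM + 1) scale (horizontal axis, with SE) for the 6 genes tested in at least 1 comparison, fitted without a block (grey) and with the code as a block (pink); filled points have a limma adjusted p under 0.05. Chil3 was not tested in acute against standard; the block leaves each difference in place and gives shorter error bars, and Mrc1 has the widest ones.

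The counts of called genes are given beside the share called among all genes tested. In acute against standard, 0 of the 5 tested genes passed limma's adjusted threshold of 0.05 without a block, where 0.0273% of 10987 genes did, and the unadjusted p was under 0.05 for 3 of the 5, as for 7.14% of all genes. Il4ra was the 1 that passed once the code was a block, against 0.71% of all genes. In chronic against standard, 1 of 6 passed without a block (Pparg) against 2.69% of 11067 genes. With the code block 4 of 6 passed, Chil3, Clec10a and Il4ra higher and Pparg lower, against 18.4% of all genes. Chil3 was tested only because its chronic level was high, and apart from it 3 of 5 passed. In chronic against acute, 0 of 6 passed without a block, against 0.695% of 11087 genes, and 1 had an unadjusted p under 0.05, as 20.8% of all genes did. With the block 2 passed, Chil3 higher and Il4ra lower, against 15.5%, or 1 of 5 apart from Chil3. In each comparison more of the tested genes passed with the block than without it.

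The median log2 difference of the tested genes was 0.41 in acute against standard, 0.69 in chronic against standard and 0.20 in chronic against acute, beside 0.01, 0.16 and 0.14 over all genes tested. The chronic libraries were therefore shifted up as a whole on this scale. Without a block, 232 genes were called higher and 66 lower in chronic against standard, and after rescaling by the median of gene ratios 115 and 118. For chronic against acute the split was 61 to 16, and 33 to 48 after rescaling. With the block and the rescaling together, the chronic differences from standard were 0.36 for Il4ra (limma adjusted p = 0.0474), 0.66 for Clec10a (0.0456), 1.08 for Chil3 (0.0403) and -1.39 for Pparg (0.00855). The 4 calls thus kept their side, where 11.4% of all genes were called, beside 18.4% with the block alone. Chil3 was tested only because its chronic level was high, so its call is a description. The acute and chronic comparisons share their standard libraries and are not independent of each other.

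**Figure D3:**
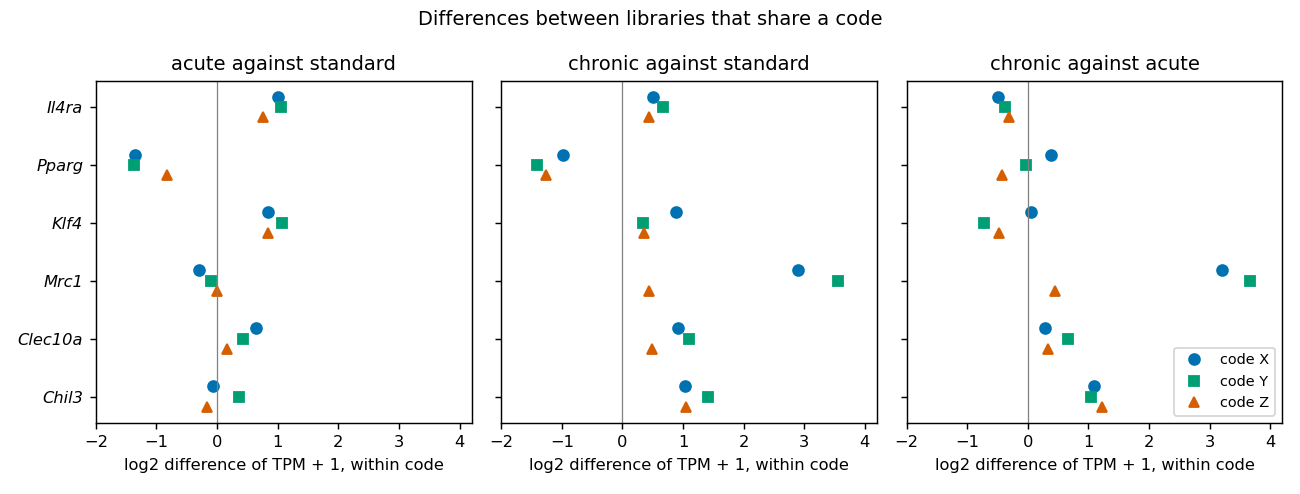
Difference between the 2 libraries that share a code (X circles, Y squares, Z triangles) on the log2(TPM + 1) scale (horizontal axis) for 6 genes in the 3 comparisons. Il4ra lies right of 0 and Pparg left of 0 in all 3 codes for both hypoxia groups against standard, and the Mrc1 point of code Z (0.43 in chronic against standard) lies far from those of X and Y (2.90 and 3.56).

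The patterns of the 6 tested genes differed among themselves. Over the 9 libraries, which share their groups and codes, the Pearson correlation of log2(TPM + 1) was 0.863 between Chil3 and Clec10a, 0.711 between Il4ra and Klf4 and -0.803 between Il4ra and Pparg. It was 0.066 between Mrc1 and Clec10a, the pair of surface lectins. Code Z was lowest for Mrc1 and highest for Clec10a in each group, while within each code both genes were highest in the chronic library. Among 7100 or 7101 genes with a mean of at least 10 TPM, those most like each of the 6 were as follows, each r taken over the same 9 libraries. For Il4ra they were Sertad3 (r = 0.977), Zc3h4 (0.97) and Lrrfip1 (0.949). For Pparg they were Ccl3 (0.943), Tnfaip2 (0.91) and Ctdnep1 (0.906). Ccl3, which encodes an inflammatory chemokine, averaged 753 TPM in the standard, 252 in the acute and 272 in the chronic group. For Klf4 they were Igsf6 (0.959), Avpi1 (0.95) and Tuba1c (0.937). For Mrc1 they were Aplp2 (0.992), Tm9sf2 (0.987) and Ugt1a7c (0.984). For Clec10a they were Rrbp1 (0.978), Tmem273 (0.969) and Golph3l (0.967), and for Chil3 Tra2b (0.995), Nup93 (0.993) and Asf1b (0.989).

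A list of 41 other genes of the IL-4 and IL-13 pathway was examined beside these 10, and 23 of the 41 were tested in each comparison. The calls went in both directions. In acute against standard 0 of 23 passed without a block and 1 with the code block, beside 0.0273% and 0.71% of all genes, and 2 had an unadjusted p under 0.05 without it, beside 7.14%, with a median log2 difference of 0.18. In chronic against standard 1 passed without a block (Il1rn, lower) and 9 with it, 5 higher and 4 lower, beside 2.69% and 18.4% of all genes, with a median of 0.14. In chronic against acute 0 passed without a block and 6 with it, 3 higher and 3 lower, beside 0.695% and 15.5% of all genes, and 9 had an unadjusted p under 0.05 without it, beside 20.8%, with a median of 0.08. The medians of both chronic comparisons lay below those of all genes. With code Z left out and no block, 12 of 23 passed in chronic against standard, 7 higher and 5 lower, beside 21.1% of all genes. The higher ones were Il13ra1, Jak3, Irs2, Mmp12 and Flt1 (limma adjusted p between 0.00138 and 0.0151), Ptpn6 and Ch25h. Ch25h reached the filter of 1 TPM there only through the chronic group. The lower ones were Cebpb, Il1rn, Ppard, Rxra and Tgm2.

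Among the 3 tested of 5 ligands and receptors, Il13ra1, which pairs with the IL-4 receptor alpha chain to bind IL-13, was the one that passed. It passed with the block in both chronic comparisons, against standard beside 18.4% of all genes and against acute beside 15.5%. It was listed at 1.99, 1.93 and 4.30 TPM in the standard libraries of code X, Y and Z and at 7.30, 6.34 and 12.3 TPM in the chronic ones, with no overlap. It rose by 1.38 ± 0.116 on the log2 scale with the block (limma adjusted p = 0.00856; without the block 0.0805). Il4, the ligand itself, was listed at 3.45 to 9.07 TPM over the 9 libraries and passed in no comparison of all 6 libraries with or without the block (chronic against standard 0.14, limma adjusted p = 0.541 with the block). Il4 was higher in chronic than in acute by 0.80 when code Z was left out (limma adjusted p = 0.0369 without a block). Il2rg, the common gamma chain, lay between 244 and 375 TPM with a chronic difference of -0.04 (limma adjusted p = 0.839 with the block), and 41.1% of its 75-base stretches also occur in an overlapping gene model.

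Of 8 signalling genes, 6 were tested, and Jak3 and Irs2 passed in chronic against standard with the block, beside 18.4% of all genes. Jak3, the kinase bound to the common gamma chain, had 22.1, 21.6 and 28.7 TPM in the standard and 31.4, 32.6 and 41.3 TPM in the chronic libraries and rose by 0.53 ± 0.071 (limma adjusted p = 0.0169; without the block 0.128). Irs2, an adaptor that IL-4 receptors use, had 2.46, 2.54 and 1.05 TPM in the standard and 5.88, 7.84 and 2.61 TPM in the chronic libraries. It rose by 1.04 ± 0.162 (limma adjusted p = 0.0225; without the block 0.182). Jak3 was again highest and Irs2 lowest in code Z. Stat6, the central transcription factor, lay between 105 and 133 TPM, with a chronic difference of 0.12 ± 0.062 from standard that did not pass (limma adjusted p = 0.208 with the block).

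Of 8 further nuclear factors, 7 were tested, and 0 passed in acute against standard with or without the block. There 0.71% and 0.0273% of all genes did. Cebpb and Rxra passed in chronic against standard, both lower, with the block and not in the same fit without it. Of all genes 18.4% passed with the block and 2.69% without it. Cebpb, a factor of the C/EBP family, averaged 483 ± 77.0 TPM in the standard and 355 ± 27.5 TPM in the chronic group and fell by 0.44 ± 0.074 (log2 difference -0.435, limma adjusted p = 0.025; without the block 0.136). Without a block it passed after rescaling (-0.617, limma adjusted p = 0.0454) and without the code Z libraries (-0.37, 0.0181). Of its 75-base stretches 16.7% also occur in another gene. Rxra, the retinoid X receptor with which PPAR gamma forms a dimer, had 38.0, 41.6 and 16.6 TPM in the standard and 25.3, 30.7 and 9.72 TPM in the chronic libraries. It fell by 0.57 ± 0.089 (log2 difference -0.57, limma adjusted p = 0.0226; without the block 0.538). With code Z left out it was -0.496 (limma adjusted p = 0.0471, no block). Without a block, leaving out 1 library moved the Rxra difference from -0.973 (without standard Z) to -0.094 (without chronic Z), and neither passed.

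Of 20 further IL-4 target genes, 7 were tested, and 4 passed in chronic against standard with the block, 2 higher and 2 lower. Of all genes 18.4% passed there. Mmp12, the macrophage elastase, had 183, 144 and 42.7 TPM in the standard libraries of code X, Y and Z, 147, 126 and 83.6 TPM in the acute ones and 2161, 1765 and 402 TPM in the chronic ones. It rose by 3.46 ± 0.101 on the log2 scale against standard (limma adjusted p = 0.00228; without the block 0.0742). Flt1, a receptor for vascular endothelial growth factor, rose by 1.05 ± 0.105 (limma adjusted p = 0.0113; without the block 0.177). Il1rn, the antagonist of the interleukin-1 receptor, had 185, 167 and 184 TPM in the standard and 115, 111 and 102 TPM in the chronic libraries. It fell by 0.70 ± 0.097 without a block (limma adjusted p = 0.0273) and passed with it too (0.0128), and leaving out standard X, standard Y, chronic X or chronic Y ended the call without a block (0.156, 0.129, 0.0999 and 0.146). Ccl17, Cd209a, Cd209d and Chil4, also known as IL-4 targets, were listed at 0 in all 9 libraries, as Retnla was.

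Tgm2, a transglutaminase, moved in opposite directions in the hypoxia groups. It had 67.8, 69.9 and 109 TPM in the standard libraries of code X, Y and Z, 166, 170 and 259 TPM in the acute ones and 28.5, 29.2 and 73.9 TPM in the chronic ones. The acute libraries were above all others. With the block it rose by 1.26 ± 0.056 in acute against standard (limma adjusted p = 0.00857), fell by 1.00 ± 0.157 in chronic against standard (log2 difference -1.004, 0.0226) and fell by 2.27 ± 0.159 in chronic against acute (-2.268, 0.00707). With all 6 libraries and no block none of these passed (limma adjusted p = 0.209, 0.198 and 0.0616). All 3 passed with code Z left out and no block (limma adjusted p = 0.00458, 0.00207 and 0.000757), and without chronic Z alone both chronic differences did (0.034 and 0.0238). Rescaling without a block gave 0.0476 (limma adjusted p) in chronic against acute. Its transcript shares 2.98% of its 75-base stretches with a gene that overlaps it on the other strand.

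**Figure D4:**
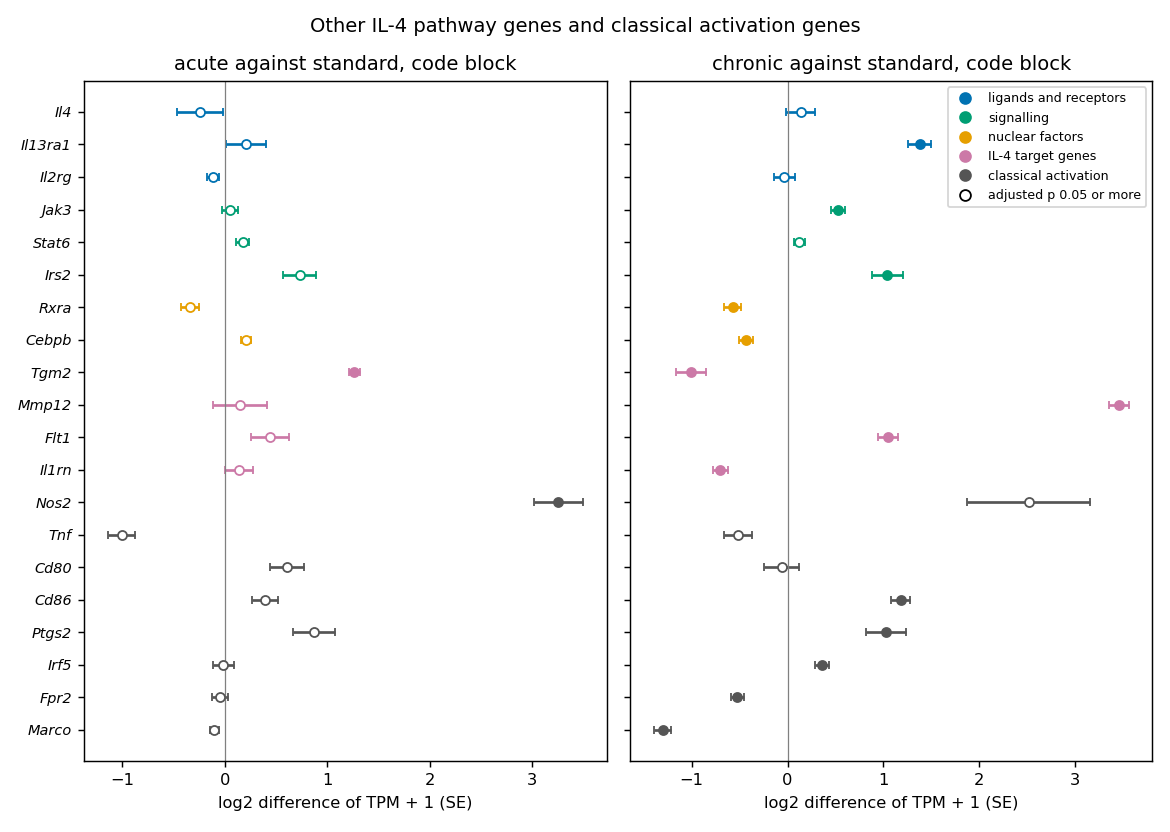
Difference from the standard group on the log2(TPM + 1) scale (horizontal axis, with SE, fitted with the code block) for 12 other IL-4 and IL-13 pathway genes and 8 classical activation genes in acute and chronic hypoxia, those called with the block in at least 1 comparison plus Stat6, Il4 and Il2rg; filled points have a limma adjusted p under 0.05. Tgm2 and Nos2 are filled in the acute panel, and Mmp12 at 3.46 and Marco at -1.30 are the outermost filled points of the chronic panel.

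Genes of classical activation, the state induced by interferon gamma and bacterial products, were examined as the opposite programme. Of 18 genes, 12 were tested in acute against standard and 10 in each chronic comparison. Without a block 0 passed in any comparison by limma, and 1, 3 and 6 had an unadjusted p under 0.05 in acute against standard, chronic against standard and chronic against acute, beside 7.14%, 22.9% and 20.8% of all genes. With the block 1 passed in acute against standard (Nos2, higher), beside 0.71% of all genes. In chronic against standard 5 passed, Cd86, Irf5 and Ptgs2 higher and Marco and Fpr2 lower, beside 18.4%. In chronic against acute 5 passed, Cd86 and Tnf higher and Cd80, Fpr2 and Marco lower, beside 15.5%. The medians of the list were -0.03, 0.15 and 0.03. Like the other pathway genes, this list had calls in both directions.

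Nos2, the inducible nitric oxide synthase that competes with arginase for arginine, had 2.53, 2.08 and 133 TPM in the standard libraries of code X, Y and Z, 35.9, 41.8 and 800 TPM in the acute ones and 39.4, 33.4 and 195 TPM in the chronic ones. The code Z library was the highest of each group by a wide margin, and the groups overlapped. It rose by 3.25 ± 0.238 in acute against standard with the block (limma adjusted p = 0.0166; without the block 0.858), and the chronic difference of 2.51 ± 0.638 did not pass (0.0563). Both passed with code Z left out and no block (3.59 and 3.50, limma adjusted p = 0.0018 and 0.00126). Without a block, leaving out 1 library moved the acute difference of Nos2 from 1.81 (without acute Z) to 5.03 (without standard Z), and neither passed. Cd86, a costimulatory surface protein, had 6.82, 7.85 and 3.95 TPM in the standard and 17.3, 17.2 and 11.0 TPM in the chronic libraries and rose by 1.18 ± 0.099 (limma adjusted p = 0.00855 with the block, 0.0786 without). Marco, a scavenger receptor for bacteria, had 4035, 4374 and 2177 TPM in the standard and 1725, 1881 and 786 TPM in the chronic libraries and fell by 1.30 ± 0.088 (log2 difference -1.304, limma adjusted p = 0.00689 with the block, 0.133 without). Tnf, the inflammatory cytokine, had 122, 118 and 256 TPM in the standard and 67.8, 66.8 and 98.2 TPM in the acute libraries, a difference of -1.004 ± 0.13 that did not pass (limma adjusted p = 0.0665 with the block). The Tnf difference was -0.821 with code Z left out and passed there without a block (limma adjusted p = 0.0105).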

How the data were processed

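RNA of 9 libraries was measured by sequencing paired ends of 75 bases, per the labels' protocols. The authors deposited 3 tables of TPM, 1 for each pair of groups, with 6 columns each, and all 9 libraries held identical values in both of their tables. Each column summed to 1000000 TPM within rounding (999999.9 to 1000000.1). FastQC, STAR, featureCounts and build GRCm38 are named, per the submitters' processing notes, and their settings and the way TPM were derived are not given in the sources used here. TPM keeps no depth, so no counting error or count test could be given.

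Symbols were matched for 34582 of 34866 identifiers, and gene positions came from GENCODE release M21 (GRCm38). Each comparison was fitted with limma 3.58.1 in R 4.3.3 (lmFit, eBayes with trend, two-sided) on log2(TPM + 1) of its 6 libraries, for genes with a mean of at least 1 TPM. Adjustment was by Benjamini-Hochberg over every gene tested, and an adjusted p under 0.05 was a call. Same-code libraries deviated together (r of their deviations from the group means 0.378 to 0.633 over 9 pairs, mean 0.475), so the shared part of the description label was taken to pair them. For an X with a Y library of another group r was 0.00191 to 0.325, and for a Z with an X or Y library -0.532 to -0.256. Codes X and Y were thus set apart from each other less than from Z. Members and lists were chosen with earlier results of these data known. From each list, genes that passed with or without the block were named, up to the 6 of lowest p per comparison, otherwise the highest and lowest difference. Stat6, Il4, Il2rg and list genes at 0 were named for their role, after their values were seen. The nearest 3 genes by correlation were named for each tested gene. Alternatives changed the pseudocount (0.1 and 5), the filter (none and 5 TPM), the trend, the scaling, the libraries in the fit and the block. The fit was tested on simulated data for chronic against standard, with noise independent between libraries and changes only in genes of higher level. Those data held no effect of the code, so they do not check the block on such an effect, nor calls of genes with a low level. The promoter windows of Pparg are not reported here.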

Additional observations from a re-analysis of the deposited data

Results flagged for a closer look

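The comparison of the chronic with the acute group tests the difference between their effects itself. It passed for Il4ra with the code block. Chil3 is described beside Il4ra, since it was tested only because its chronic level was high. For Il4ra the difference was -0.395 on the log2(TPM + 1) scale (limma adjusted p = 0.0295 with the code block, 0.253 without it), and it was lower in 3 of 3 codes, with both groups above standard. For Chil3 it was 1.122 (limma adjusted p = 0.026 with the code block, 0.116 without it), and it was higher in 3 of 3 codes. Without a block, the Il4ra difference did not pass without the code Z libraries either (limma adjusted p = 0.208), and the Chil3 difference did (0.0438). Chil3 reached the filter of 1 TPM through the chronic group alone, so its test is a description. The cause was not tested.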

How the results depend on the processing

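The number of called genes depended most on the block and on the code Z libraries. The cause was not tested. With the description code as a replicate block, the calls among the alternative activation genes, the other pathway genes and the classical genes were 1, 1 and 1 in acute against standard, 4, 9 and 5 in chronic against standard and 2, 6 and 5 in chronic against acute, where the fit without it gave 0, 0 and 0, then 1, 1 and 0, then 0, 0 and 0. With that block in 1 fit of all 9 libraries they were 2, 1 and 2, then 5, 9 and 7, then 3, 8 and 6. The share of all genes called in that joint fit is not given here, so these counts are not a result about the lists. With that block and rescaling by the median of gene ratios the calls were 1, 1 and 1, then 4, 9 and 4, then 2, 5 and 5. Without the code Z libraries, an alternative chosen after seeing the data, they were 1, 2 and 2, then 4, 12 and 7, then 2, 9 and 5. Among all genes tested, 2.95%, 21.1% and 16.3% were called there, beside 0.0273%, 2.69% and 0.695% with all 6 libraries and no block. With the code block those shares were 0.71%, 18.4% and 15.5%, and with the block and rescaling 0.491%, 11.4% and 9.8%. With the block, all 3 groups in 1 fit and without code Z, which changes 3 choices together, the calls were 2, 4 and 3, then 5, 12 and 9, then 4, 13 and 6. There 7.98%, 32.9% and 28.6% of all genes were called. Chil3 reached the filter of 1 TPM only through the chronic group. Without code Z the same holds for Ch25h of the target list and, in chronic against standard, for Ptgs2 of the classical list. Their calls in those comparisons are a description. The title number as a replicate block did not pair the standard libraries with the others (r from -0.515 to 0.633, mean 0.0942). It gave 0 alternative activation and 0 pathway genes in chronic against standard, beside 0.00904% of all genes. In chronic against acute, where both numberings coincide, it gave 2, 6 and 5, beside 15.5% of all genes.

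Rescaling alone gave 1 alternative activation gene in acute against standard and 2 pathway genes in each chronic comparison. Of all genes it called 0.191% in acute against standard, 2.11% in chronic against standard and 0.731% in chronic against acute. Quantile normalization gave 1 alternative activation gene in acute against standard. A single fit of all 9 libraries without a block gave 1 alternative activation gene in acute against standard, 1 classical gene in chronic against standard and 3 pathway genes in chronic against acute. Leaving out 1 library at a time gave 0 to 2 alternative activation genes, 0 to 3 pathway genes and 0 to 1 classical genes in chronic against standard, and 0 to 1 alternative activation and 0 to 2 pathway genes in chronic against acute. In chronic against standard, the alternative activation count was 0 without standard X, standard Y or chronic Y and 2 without standard Z or chronic Z. The pathway count there was 0 without standard X, standard Y, chronic X or chronic Y, 2 without standard Z and 3 without chronic Z. In chronic against acute both higher counts came without chronic Z. For quantile normalization, the fit of all 9 libraries and the fits without 1 library, the share of all genes called is not given here. Their counts are therefore not a result about these genes. The sign of 2 small differences changed. Mrc1 in acute against standard ranged from -0.641 to 0.304 when 1 library was left out, around -0.137. Pparg in chronic against acute ranged from -0.156 to 0.144, around -0.032, and was 0.169 without code Z with or without the block and the joint fit. Of the recomputed differences of the single alternative activation genes, 278 kept their side of the threshold, 45 passed only in the alternative, 4 passed only in the original fit and 7 changed sign.

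The depth is unknown and the levels of Chil3, Klf4 and Cd163 are near the filter, which limits what can be detected in them. With 3 libraries per group, and 2 where code Z is left out, the spread is estimated mainly by sharing it across genes.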

Other observations

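Several genes outside the 10 separated the code Z libraries from the X and Y libraries in every group, as values only. Rxra, the partner receptor of PPAR gamma, was listed at 9.72 to 16.6 TPM in code Z and at 25.3 to 41.6 TPM in the others. Kdm6b, a histone demethylase, was higher in code Z, at 3.87, 6.57 and 4.90 TPM in the standard, acute and chronic library, against 1.34 to 2.84 TPM in the others. Ly6c2, a monocyte surface gene, was listed at 243, 194 and 969 TPM in code Z and at 42.6 to 78.8 TPM in the others, and Cx3cr1 at 57.6, 49.1 and 116 TPM against 3.74 to 14.7 TPM. The code is not a group of the study, and no test was made.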
